A study of Mus musculus with 45 samples.

Results

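The adipocyte and lipid storage genes are 34 mouse genes whose products make, coat, fill or empty the fat droplet of an adipocyte or are secreted by it. They were taken by gene symbol from the 47729 genes in each of 2 deposited tables of tumour RNA, and every symbol matched once in each table. The samples were 45 subcutaneous tumours of CT26, an undifferentiated colon carcinoma line of BALB/c origin. All mice, those given vehicle included, carried human PD-1 and human TIGIT genes knocked in at both loci (the HuGEMM double knock-in). Both receptors restrain lymphocytes. Intraperitoneal injections were given 2 times a week from day 8, when tumours measured 90 to 100 mm3.

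In the experiment coded T2106, 18 tumours fell into 6 groups of 3: serplulimab (against PD-1) with HLX53 (against TIGIT) at 10 mg/kg each, serplulimab with HLX53 at 5 mg/kg, pembrolizumab (against PD-1) with tiragolumab (against TIGIT), serplulimab alone, HLX53 alone, and vehicle. In T2215, 27 tumours fell into 9 groups of 3: the 4 pairs of serplulimab or pembrolizumab with HLX53 or tiragolumab, each of the 4 antibodies alone, and vehicle. Every antibody was given at 10 mg/kg, except HLX53 in the group at 5 mg/kg, which received serplulimab at 10 mg/kg. No age of the mice is given here. A tumour is 1 library, so p-values measure only the spread between these tumours.

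White adipocytes store fatty acids as triglyceride in a droplet coated by perilipins and CIDE proteins. PPARG and C/EBPα switch on the genes of this programme during differentiation, lipoprotein lipase and CD36 bring fatty acids in, and the lipases encoded by Pnpla2 and Lipe release them again when β3-adrenergic receptors are stimulated. Adiponectin, leptin, resistin and adipsin are secreted by these cells, and the genes of fatty acid synthesis are also used by dividing tumour cells to make membranes.

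The members were described through their relation to Adipoq, which encodes adiponectin and is largely restricted to adipocytes, so 4 promoters are shown: those of Adipoq, of the droplet coat genes Plin1 and Cidec, and of Acly, a fatty acid synthesis gene whose values did not follow Adipoq. The sequences are RefSeq promoter windows on GRCm38.p6, 250 bases before to 50 bases after an annotated start, 5′ to 3′ on the strand of the gene. Capitals mark matches, on either strand, to TTGCNNAA (the letters of a C/EBP element) or to CCAAT. Cidec has 2 annotated starts, and the window shown was chosen for holding more matches to TTGCNNAA.
Adipoq, chr16:23146286-23146585, plus strand: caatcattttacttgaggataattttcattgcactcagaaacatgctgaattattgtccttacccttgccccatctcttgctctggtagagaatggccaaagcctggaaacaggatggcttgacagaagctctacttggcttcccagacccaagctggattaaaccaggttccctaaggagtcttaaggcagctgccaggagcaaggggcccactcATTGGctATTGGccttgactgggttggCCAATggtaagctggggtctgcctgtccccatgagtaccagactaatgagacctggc
Plin1, chr7:79732727-79733026, minus strand: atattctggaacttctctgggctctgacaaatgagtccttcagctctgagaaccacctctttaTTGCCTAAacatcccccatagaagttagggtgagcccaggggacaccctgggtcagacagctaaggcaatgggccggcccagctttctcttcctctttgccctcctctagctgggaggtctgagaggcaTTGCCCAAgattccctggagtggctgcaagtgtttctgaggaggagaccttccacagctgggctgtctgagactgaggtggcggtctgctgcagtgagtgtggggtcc
Cidec, chr6:113434715-113435014, minus strand: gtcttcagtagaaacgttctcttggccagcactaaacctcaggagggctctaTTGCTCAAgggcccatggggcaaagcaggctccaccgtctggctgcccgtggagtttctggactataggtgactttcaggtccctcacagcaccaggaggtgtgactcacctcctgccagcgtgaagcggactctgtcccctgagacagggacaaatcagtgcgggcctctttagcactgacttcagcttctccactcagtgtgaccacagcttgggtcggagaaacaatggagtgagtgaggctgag
Acly, chr11:100527951-100528250, minus strand: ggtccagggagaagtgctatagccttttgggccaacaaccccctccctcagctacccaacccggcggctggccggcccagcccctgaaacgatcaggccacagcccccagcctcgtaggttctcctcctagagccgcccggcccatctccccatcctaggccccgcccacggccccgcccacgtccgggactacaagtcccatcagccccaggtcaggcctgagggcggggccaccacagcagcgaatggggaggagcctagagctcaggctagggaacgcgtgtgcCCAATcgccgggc
The Adipoq gene itself spans chr16:23146536-23158028 on the plus strand of GRCm38. Of the 34 genes, 24 were in the promoter table, with 32 starts. TTGCNNAA was present at 12.5% of these starts (in Cidec, Lep, Plin1 and Pparg), against 10.8% of all 32851 starts in the table, and CCAAT at 34.4%, against 37.4%. The SREBP-type letters TCACNCCAC were present at 6.25%, against 1.24%, in Acsl1 and Mlxipl, and the E-box CACGTG at 6.25%, against 7.15%. The DR1 element of PPARG with RXR was present at 0 of these starts and at 0.381% of all. A match or its absence describes the letters of this window only.

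Levels are FPKM, which are scaled by gene length, and tests used log2(FPKM + 0.5) in limma with Benjamini-Hochberg adjustment over all genes tested (15070 in T2106 and 14914 in T2215, those with 0.5 FPKM or more in at least 3 libraries). Differences and their standard errors (SE) are on this scale, which understates changes of genes near or below 0.5 FPKM. Of the 34 members 31 were tested in each experiment, and Cidea, Acvr1c and Ucp1 were not. The libraries listed 12918 to 14448 genes at 0.5 FPKM or more, and the depth behind the values is unknown. Of epithelial markers of a carcinoma, Krt18 was at 8.52 FPKM or more in every T2106 library and at 4.49 or more in every T2215 library, while Epcam had medians of 0.45 and 1.12 FPKM. Libraries of T2215 that stood apart were replicate 1 of serplulimab, in which 8 skeletal muscle markers summed to 15340 FPKM, replicate 3 of pembrolizumab with tiragolumab, with 203 FPKM of the same genes, and replicate 2 of serplulimab with tiragolumab, with 56.1 FPKM of these and 115 FPKM of 9 skin markers. Replicate 2 of serplulimab with HLX53 at 5 mg/kg in T2106 had 55.9 FPKM of the muscle genes. Every other library of either experiment had at most 4.41 FPKM of them. Replicate 3 of serplulimab in T2215 also stood apart, with FPKM summing to 911201, against 678636 to 773865 in the other T2215 libraries. It had the lowest Acly, Acaca and Elovl6 of T2215 and the highest mt-Co3 and mt-Atp6, of the mitochondrial genome. Its Adipoq was the median of its group.

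In T2106 the 3 tumours given serplulimab with HLX53 at 10 mg/kg carried the most fat transcripts as a group. Adipoq had 70.6, 71.8 and 80.6 FPKM in these tumours. It had 6.16, 77.3 and 0.0624 FPKM with HLX53 at 5 mg/kg, 0.0575, 0.0778 and 0.0231 FPKM with pembrolizumab and tiragolumab, 9.12, 3.34 and 1.72 FPKM with serplulimab, 0.025, 0.000439 and 0.0227 FPKM with HLX53, and 0.107, 11.8 and 0.846 FPKM with vehicle. The groups given the pair at 10 mg/kg and vehicle did not overlap, whereas 1 tumour at 5 mg/kg reached the level of the higher dose and another lay below every vehicle tumour. Of the 34 members, 18 had their highest value of the experiment in a tumour given the pair at 10 mg/kg and 10 had it in replicate 2 of the 5 mg/kg group. Acly and Acaca were highest in replicate 2 of pembrolizumab with tiragolumab, and Mlxipl, Ucp1, Fasn and Elovl6 in replicate 2 of vehicle.

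**Figure D1:**
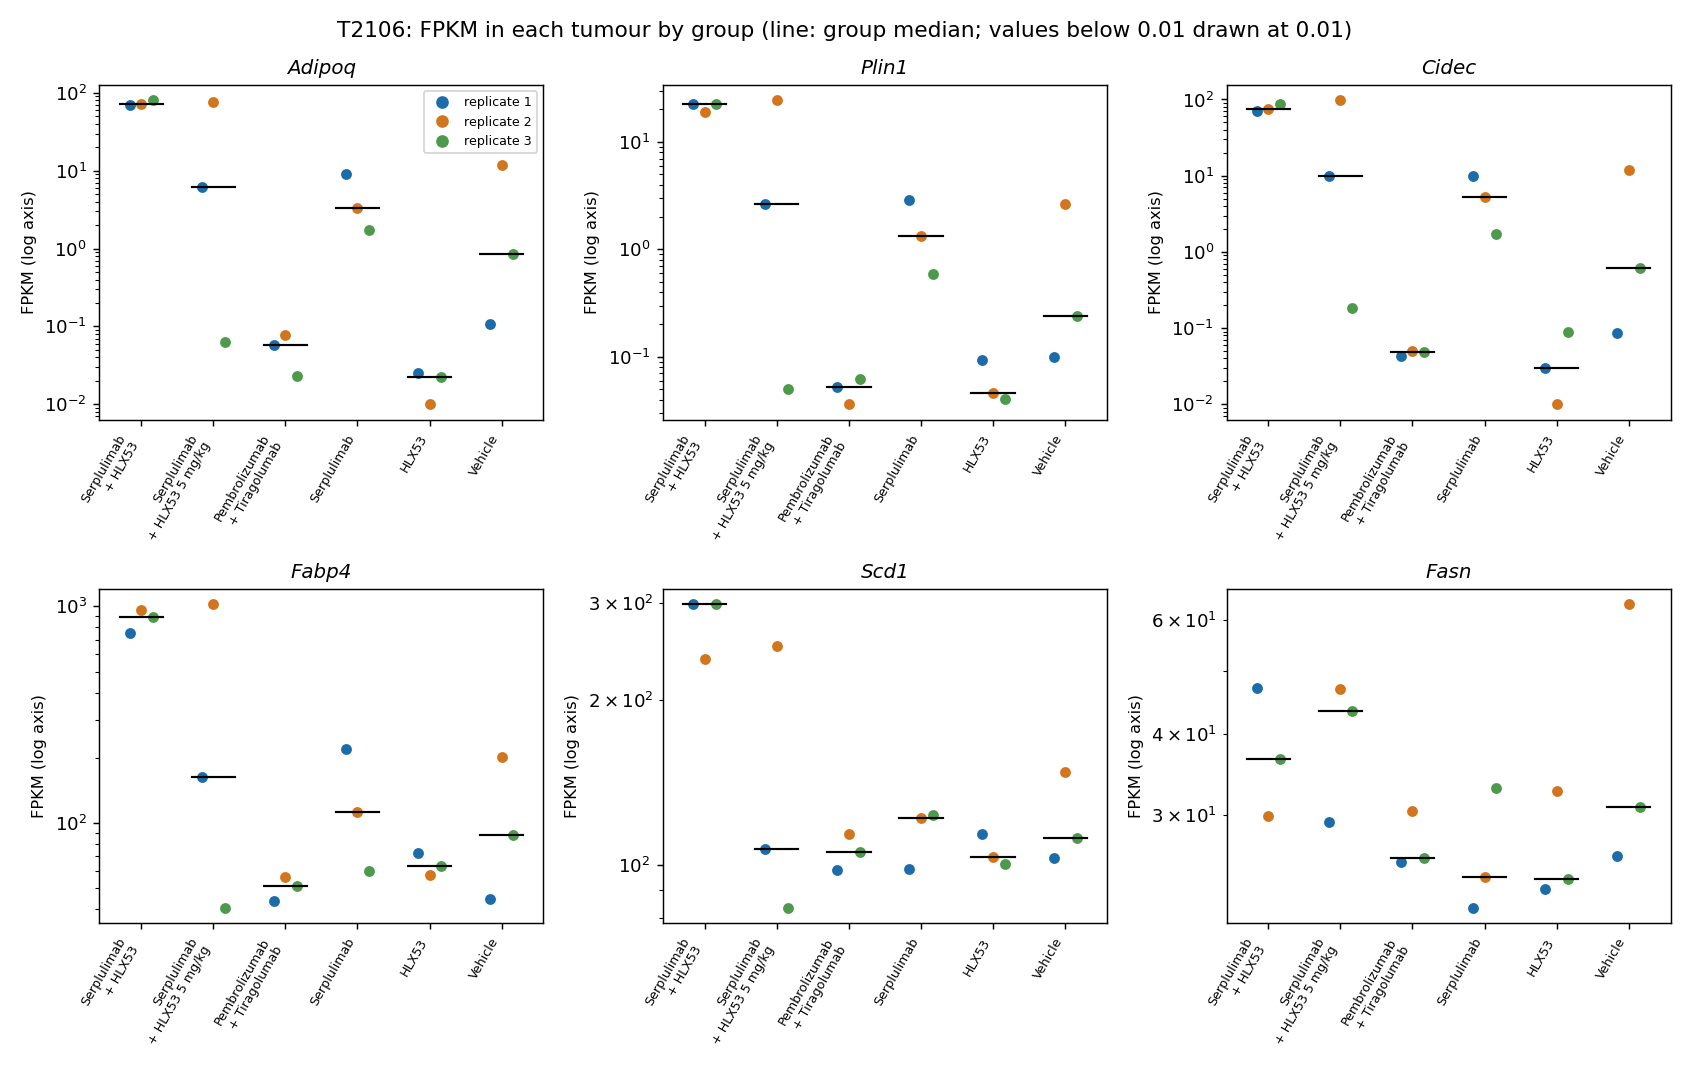
Levels of 6 adipocyte and lipid storage genes in the 18 tumours of T2106 (y axis, FPKM on a log axis; x axis, treatment group, 1 point per tumour coloured by replicate number, line at the group median, lowest values drawn at the axis floor). Adipoq, Plin1, Cidec, Fabp4 and Scd1 were above every vehicle tumour in all 3 tumours given serplulimab with HLX53 at 10 mg/kg, and Fasn overlapped between these groups.

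Against vehicle, 24 of the 31 tested members were higher with the pair at 10 mg/kg and 3 were lower, beside 44% of all tested genes past the threshold, 23.4% higher and 20.6% lower. The median difference of the members was 2.83 on the log2 scale, beside -0.04 over all genes, and 29 had an unadjusted p under 0.05, beside 56% of all genes. For 26 members every tumour with the pair was above every vehicle tumour (31.6% of all genes), and for 2 every one was below (33.6%). Lep, Aqp7 and Slc2a4 reached the minimum level only with the help of these 3 libraries and so had to be higher. Of the other 28 members 21 rose and 3 fell. In bulk RNA, more cells of a type and more RNA per cell cannot be told apart. The count of members past the threshold rested on few tumours: it was 8 without replicate 1 of the pair and 13 without its replicate 3. It lay between 20 and 26 when any other tumour of the 2 groups was left out. No share of all genes is given for these refits. A drop particular to the members therefore cannot be told from a general loss of calls.

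All 6 adipokine and lineage genes rose, though Lep had to, having reached the minimum level only with the libraries of the pair. Adipoq averaged 74.3 ± 5.43 FPKM with the pair and 4.24 ± 6.53 FPKM with vehicle (SD, n = 3 each), a difference of 5.11 ± 1.32 (SE; limma adjusted p = 0.0135). Lep, which encodes leptin, had 2.56, 1.01 and 1.42 FPKM with the pair, against 0.00019, 0.0918 and 0.0121 FPKM with vehicle. Its difference of 1.95 ± 0.45 (limma adjusted p = 0.0113) is therefore a description and not a test. The largest differences of any member were those of Car3, encoding carbonic anhydrase 3, at 5.87 ± 1.54 (349 ± 12.8 against 17.8 ± 27.7 FPKM), and of Cfd, encoding adipsin, at 5.83 ± 1.63 (585 ± 126 against 37.9 ± 59.3 FPKM). Retn, encoding resistin, rose by 4.95 ± 1.23, and Adig, encoding adipogenin, by 3.33 ± 0.82. The vehicle mean of each of these genes came mostly from replicate 2, the vehicle tumour with 11.8 FPKM of Adipoq.

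Of the adipogenic transcription factors, Pparg and Cebpa rose and Mlxipl did not pass. Pparg, encoding the nuclear receptor that drives adipocyte differentiation, had 13.2, 8.41 and 9.13 FPKM with the pair, against 0.872, 1.99 and 0.934 FPKM with vehicle (difference 2.63 ± 0.52, adjusted p = 0.00855). Cebpa, encoding C/EBPα, rose by 2.46 ± 0.62. Mlxipl, which encodes the glucose-responsive factor ChREBP, averaged 1.04 ± 0.238 FPKM with the pair and 1.34 ± 0.658 FPKM with vehicle (difference -0.21 ± 0.30, 95% interval -0.85 to 0.44, adjusted p = 0.571). Opposite-strand gene models overlap exons of Cebpa and Mlxipl, and no source used here states whether counting used strand, so reads of the overlapping genes cannot be told apart; the same holds for Plin4, Lipe, Adrb3, Acvr1c, Acsl1, Gpd1 and Elovl6.

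The 3 tested droplet coat genes rose. Plin1, encoding the perilipin that gates lipolysis, had 22.3, 18.9 and 22.7 FPKM with the pair, against 0.1, 2.63 and 0.241 FPKM with vehicle (difference 4.28 ± 0.97, adjusted p = 0.0108). Cidec, whose product fuses droplets into a large one, had 71, 75.8 and 88.1 FPKM, against 0.0866, 11.7 and 0.616 FPKM (5.29 ± 1.35, adjusted p = 0.013). Plin4 had 17, 12.4 and 22.1 FPKM, against 1.32, 2.65 and 0.932 FPKM (3.09 ± 0.61, adjusted p = 0.00855). None of the 3 overlapped between the groups, and in each the vehicle tumour of replicate 2 was the highest of its group.

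The lipolysis genes that could be tested rose too, by smaller amounts for those that every tumour expressed. Pnpla2, encoding adipose triglyceride lipase, averaged 82.4 ± 6.89 FPKM with the pair and 40.4 ± 13.3 FPKM with vehicle (1.07 ± 0.26, adjusted p = 0.0124). Lipe, encoding hormone-sensitive lipase, averaged 29.7 ± 3.75 FPKM with the pair and 6.91 ± 3.74 FPKM with vehicle (2.13 ± 0.57). Adrb3, the β3-adrenergic receptor gene, averaged 6.36 ± 1.06 FPKM with the pair and 0.535 ± 0.828 FPKM with vehicle (adjusted p = 0.00952). Ucp1, the uncoupling protein gene of thermogenic fat, stayed at or below 0.0934 FPKM in every T2106 tumour, the highest being a vehicle tumour, so the tumours rich in Adipoq were not rich in Ucp1.

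Every uptake gene rose, though Aqp7 and Slc2a4 had to, having reached the minimum level only with the libraries of the pair. Lpl, encoding lipoprotein lipase, had 151, 123 and 128 FPKM with the pair, against 2.41, 5.99 and 1.98 FPKM with vehicle (5.22 ± 0.97, adjusted p = 0.00761, the smallest among the members). Cd36, encoding a fatty acid translocase that macrophages and endothelium also express, had 240, 160 and 250 FPKM, against 24, 15.2 and 15.8 FPKM (3.53 ± 0.68, adjusted p = 0.00822). Fabp4 encodes a fatty acid carrier of adipocytes, macrophages and capillary endothelium. It was the member with the highest level per length in the tumours given the pair, at 750, 959 and 892 FPKM. Vehicle tumours had 44.7, 201 and 87.9 FPKM of Fabp4 (difference 3.21 ± 0.84, limma adjusted p = 0.0138). Over all T2106 tumours its median of 80.3 FPKM was below the 113 FPKM of Scd1. Acsl1, which activates fatty acids, rose by 2.53 ± 0.51 (46.5, 28.8 and 42.5 against 5.39, 7.74 and 5.86 FPKM). Aqp7, the glycerol channel gene, rose by 2.04 ± 0.42 (1.27, 2.63 and 1.89 against 0.00295, 0.245 and 0.00384 FPKM), and Slc2a4, the insulin-responsive glucose transporter gene, by 2.38 ± 0.49. None of the 6 overlapped between the groups, which the minimum level favoured for Aqp7 and Slc2a4.

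Among the triglyceride assembly genes, Gpd1 (glycerol phosphate supply) rose by 3.71 ± 0.88, Pck1 (glyceroneogenesis) by 4.54 ± 1.05 and Dgat2, which adds the last acyl chain, by 3.02 ± 0.68. Dgat1, the other enzyme of that step, was above all vehicle tumours but missed the threshold, at 18.2 ± 2.04 FPKM with the pair and 12.1 ± 1.99 FPKM with vehicle (0.58 ± 0.23, 95% interval 0.09 to 1.07, adjusted p = 0.0512).

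The fatty acid synthesis genes were mixed. Of 6, Scd1 rose, 3 fell, and Fasn and Thrsp did not pass. Scd1, the stearoyl-CoA desaturase gene, averaged 278 ± 35.3 FPKM with the pair and 121 ± 23.5 FPKM with vehicle (1.21 ± 0.29, adjusted p = 0.0115). Elovl6, which elongates palmitate, had 1.98, 5.4 and 2.35 FPKM with the pair, against 8.85, 11 and 9.21 FPKM with vehicle, and fell by 1.55 ± 0.39 on the log2 scale (adjusted p = 0.0126). Acly, which makes cytosolic acetyl-CoA, had 55.1, 67.5 and 51 FPKM, against 87, 67.2 and 91.6 FPKM (-0.50 ± 0.17, adjusted p = 0.0326), and Acaca, the acetyl-CoA carboxylase gene, 10.3, 10.7 and 10.6 FPKM, against 13.3, 14.3 and 15.1 FPKM (-0.42 ± 0.16, adjusted p = 0.0484). Fasn, the fatty acid synthase gene, had 47.1, 29.9 and 36.7 FPKM with the pair, against 26, 63.6 and 30.9 FPKM with vehicle (0.01 ± 0.29, 95% interval -0.62 to 0.63, adjusted p = 0.988). Thrsp, a lipogenic gene of fat and liver, averaged 8.82 ± 4.58 FPKM with the pair and 0.99 ± 1.16 FPKM with vehicle (2.83 ± 1.11, adjusted p = 0.0505).

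**Figure D2:**
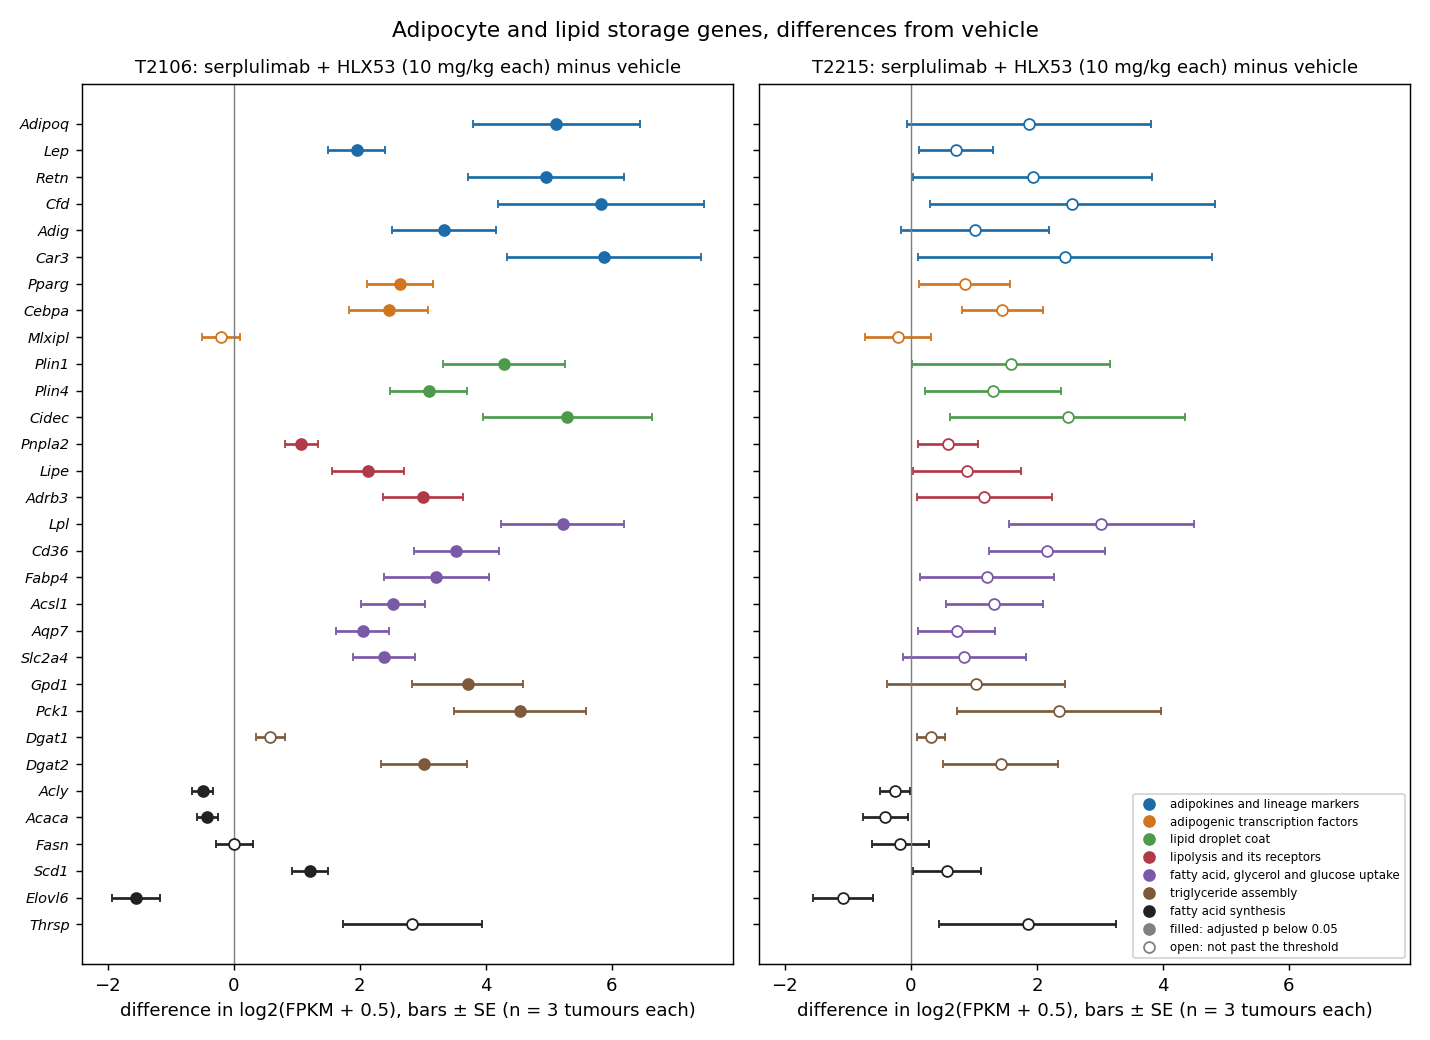
Differences between serplulimab with HLX53 (10 mg/kg each) and vehicle for the 31 tested genes, in T2106 (left) and T2215 (right); points are differences in log2(FPKM + 0.5), bars are SE, n = 3 tumours per group, filled points passed an adjusted p of 0.05. In T2106, 24 points lay right of 0 and 3 left of it past the threshold. Of the 24, Lep, Aqp7 and Slc2a4 had to lie right of 0. In T2215 none passed.

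Other genes of the same pathways were described from 7 lists that exclude the members. Their counts stand beside 23.4% of all tested genes higher and 20.6% lower in this comparison. Of 17 tested adipocyte-enriched genes 14 rose and 1 fell (median 2.26), among them Lgals12 (2.31 ± 0.40), Nnat (2.22 ± 0.39) and Adora1 (1.60 ± 0.28). Of 10 droplet and lipolysis genes 6 rose and 1 fell, including the lipase inhibitor G0s2 (3.46 ± 0.61), the lipase coactivator Abhd5 (0.68 ± 0.12) and Plin2 (2.38 ± 0.47), which coats droplets in many cell types. Of 15 uptake and triglyceride synthesis genes 3 rose and 2 fell, neither share above that of all genes. Fabp3, Angptl4 and Fabp5 were higher by 2.16, 1.03 and 2.30. Of 12 fatty acid synthesis and SREBP1 genes 1 rose and 6 fell: Nr1h3, encoding LXRα, was higher by 3.22 ± 0.70, and the desaturases Fads1 (-0.82 ± 0.19) and Fads2 (-1.82 ± 0.43) were lower. All 12 sterol synthesis genes fell (median -1.24), among them Srebf2 (-1.01 ± 0.26) and Fdps (-1.70 ± 0.44). Of 12 fatty acid oxidation genes 5 rose and 1, Acadm, fell. Of 8 thermogenic genes 5 rose, Slc36a2 and Cox8b among them, and 1, Dio2 (-2.24 ± 0.41), fell.

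Markers of other cell types moved in the same comparison, and their part in the members' differences was not tested. Beside their counts, 23.4% of all tested genes were higher and 20.6% lower. The counts given for T cell, Schwann cell, skeletal muscle and mitochondrial transcripts lay near or below these shares. Fibroblast and preadipocyte markers summed to 3301 to 4678 FPKM with the pair, against 904 to 1015 FPKM with vehicle, and 8 of 10 rose. Macrophage markers summed to 6007 to 9630 FPKM, against 1193 to 2035 FPKM, with 7 of 8 higher. Endothelial markers summed to 157 to 218 FPKM, against 47.3 to 92.1 FPKM, with 6 of 8 higher. Skin markers summed to 9.21 to 9.60 FPKM, against 1.38 to 1.99 FPKM, with 3 of 4 tested genes higher. Of this list, Krt5, Krt14 and Krt15 had T2106 medians of 0.0893, 0.0806 and 0.000234 FPKM and their highest values in tumours of the pair. The minimum level of 0.5 FPKM thus favoured a rise, and the count of skin markers is a description and not a test. Mammary epithelium markers summed to 70.4 to 109 FPKM, against 16 to 35.3 FPKM, and 4 of 5 tested genes rose, the keratins Krt8 and Krt18 and Epcam among them. Of the 5 milk genes in that list, Csn2, Csn1s1 and Wap were at or below 0.236 FPKM in every T2106 tumour, Lalba reached 1.70 FPKM in replicate 1 of the pair (median over the experiment 0.0401 FPKM), and Csn3 ran from 1.64 to 23.9 FPKM, highest in an HLX53 tumour. T cell markers summed to 47.9 to 113 FPKM, against 23.7 to 35.9 FPKM, with 1 of 6, Cd4, past the threshold. All 6 dividing cell markers fell, with sums of 253 to 499 FPKM with the pair, against 667 to 674 FPKM with vehicle. Of 9 transcripts of the mitochondrial genome 1 rose and 2 fell, and replicate 2 of vehicle, the vehicle tumour with the most Adipoq, stood apart at 41011 FPKM of them, against 16558 to 27359 FPKM in the other T2106 libraries. Without that tumour 26 members passed against vehicle, a refit for which no share of all genes is given. Schwann cell markers summed to 7.78 to 36.1 FPKM with the pair, against 5.85 to 11.5 FPKM with vehicle, and of 4 tested 1 rose and 1 fell; the 36.1 FPKM were in replicate 3 of the pair, the T2106 tumour with the most Adipoq, and no other T2106 library exceeded 11.7 FPKM. Skeletal muscle markers summed to 1.74 to 3.14 FPKM, against 1.98 to 3.13 FPKM, and 0 of 2 passed.

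No tumour given a single agent in T2106 reached the pair's level of Adipoq. Against HLX53 alone, the pair at 10 mg/kg was higher in 25 of 31 members and lower in 0, beside 26.8% of all genes past the threshold, 18.1% higher and 8.69% lower. For 26 members the pair lay above every HLX53 tumour (29.9% of all genes) and for 2 below (29.3%), and 27 had an unadjusted p under 0.05, beside 48.4% of all genes. Lep, Aqp7 and Slc2a4 again had to be higher, and of the other 28 members 22 were higher and 0 were lower. Adipoq differed by 7.18 ± 1.32 (adjusted p = 0.00818), Cfd by 9.85 ± 1.63 and Thrsp by 4.05 ± 1.11 (adjusted p = 0.0255). The HLX53 tumours had the lowest median of Adipoq in T2106, 0.0227 FPKM. The count of members past the threshold was 12 without HLX53 replicate 2, 13 without replicate 1 of the pair and 11 without its replicate 3. Shares of all genes are again not given for these refits.

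Against serplulimab alone, 5 members were higher with the pair and 0 were lower, beside 1.59% of all genes past the threshold, 1.41% higher. These were Pnpla2 (1.23 ± 0.26), Adrb3 (3.10 ± 0.63), Aqp7 (2.01 ± 0.41), Slc2a4 (2.28 ± 0.49) and Scd1 (1.28 ± 0.29), with adjusted p-values of 0.031 to 0.0426 in limma. Aqp7 and Slc2a4 reached the minimum level only through the libraries of the pair, which leaves 3 of the other 28 members. For 27 of the 31 members the pair lay above every serplulimab tumour (19.6% of all genes), 29 had an unadjusted p under 0.05 (35.9% of all genes), and Adipoq differed by 4.10 ± 1.32 (95% interval 1.28 to 6.93, adjusted p = 0.0757). The count was 24 without serplulimab replicate 1, the highest of its group in Adipoq, and 0 without serplulimab replicate 2, serplulimab replicate 3, or replicate 1 or 3 of the pair. With a pseudocount of 0.1 it was 0, with no filter on low values 1, and with only the libraries compared 19. Without the shares of all genes, which are not given here, these counts do not show whether the members stood apart.

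The dose comparison passed for 0 of the 31 members, with 21 at an unadjusted p under 0.05 (all genes, 0.139% past the adjusted threshold and 11% at the unadjusted one). For 2 members the higher dose lay above every tumour of the lower, beside 5.32% of all genes, and for 0 below, beside 1.73%. Adipoq averaged 74.3 ± 5.43 FPKM at 10 mg/kg of HLX53 and 27.8 ± 42.9 FPKM at 5 mg/kg (3.49 ± 1.32, 95% interval 0.66 to 6.32, adjusted p = 0.408). Without replicate 2 of the 5 mg/kg group, 27 members passed. That tumour held the most Adipoq of its group, so leaving it out had to widen the difference in Adipoq and in members that follow it. The share of all genes in that refit is not given here. The lower dose against vehicle gave 0 members past the threshold (1.02% of all genes, 0.352% higher and 0.67% lower) and 11 at an unadjusted p under 0.05 (28.7%), with Lpl at 2.98 ± 0.97 (adjusted p = 0.0898) and Acaca at -0.59 with the smallest adjusted p, 0.0685. It gave 24 without replicate 3 of that group, whose Adipoq was 0.0624 FPKM, and 2 without replicate 1. Replicate 3 held the least Adipoq of its group, so the 24 was favoured in the same way. No share of all genes is given for these refits either.

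The other groups of T2106 gave 0 members past the threshold against vehicle: serplulimab (0% of all genes), HLX53 (0.00664%) and pembrolizumab with tiragolumab (0%). At an unadjusted p under 0.05 there were 3 members with serplulimab (8.49% of all genes), 2 with HLX53 (3.86%) and 2 with pembrolizumab and tiragolumab (5.14%). Lpl had 52.1, 12.6 and 11.8 FPKM with serplulimab, against 2.41, 5.99 and 1.98 FPKM with vehicle, so the groups did not overlap, but the difference of 2.50 ± 0.97 had an adjusted p of 0.52. With HLX53 alone and with pembrolizumab and tiragolumab, 10 members lay below every vehicle tumour, beside 10.3% and 16.4% of all genes, and 0 and 1 members lay above (5.33% and 7.41%). With serplulimab 2 members, Lpl and Cd36, lay above (6.24%).

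In T2215 fat transcripts varied widely among tumours of the same group. Adipoq ran from 0.0586 FPKM in replicate 3 of tiragolumab to 137 FPKM in replicate 2 of serplulimab with HLX53. It had 14.5, 137 and 0.509 FPKM with serplulimab and HLX53, 7.06, 13.6 and 2.26 FPKM with serplulimab and tiragolumab, 16, 5.76 and 0.852 FPKM with pembrolizumab and HLX53, and 0.381, 1.19 and 19 FPKM with pembrolizumab and tiragolumab. Among the single agents it had 123, 0.217 and 51.6 FPKM with serplulimab, 5.84, 1.96 and 0.697 FPKM with pembrolizumab, 0.122, 36.3 and 2.27 FPKM with HLX53 and 0.218, 3.81 and 0.0586 FPKM with tiragolumab. Vehicle tumours had 22, 0.378 and 1.64 FPKM. By group median the order from high to low was serplulimab (51.6 FPKM), serplulimab with HLX53 (14.5), serplulimab with tiragolumab (7.06), pembrolizumab with HLX53 (5.76), HLX53 (2.27), pembrolizumab (1.96), vehicle (1.64), pembrolizumab with tiragolumab (1.19) and tiragolumab (0.218). Each group overlapped its neighbours in this order.

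**Figure D3:**
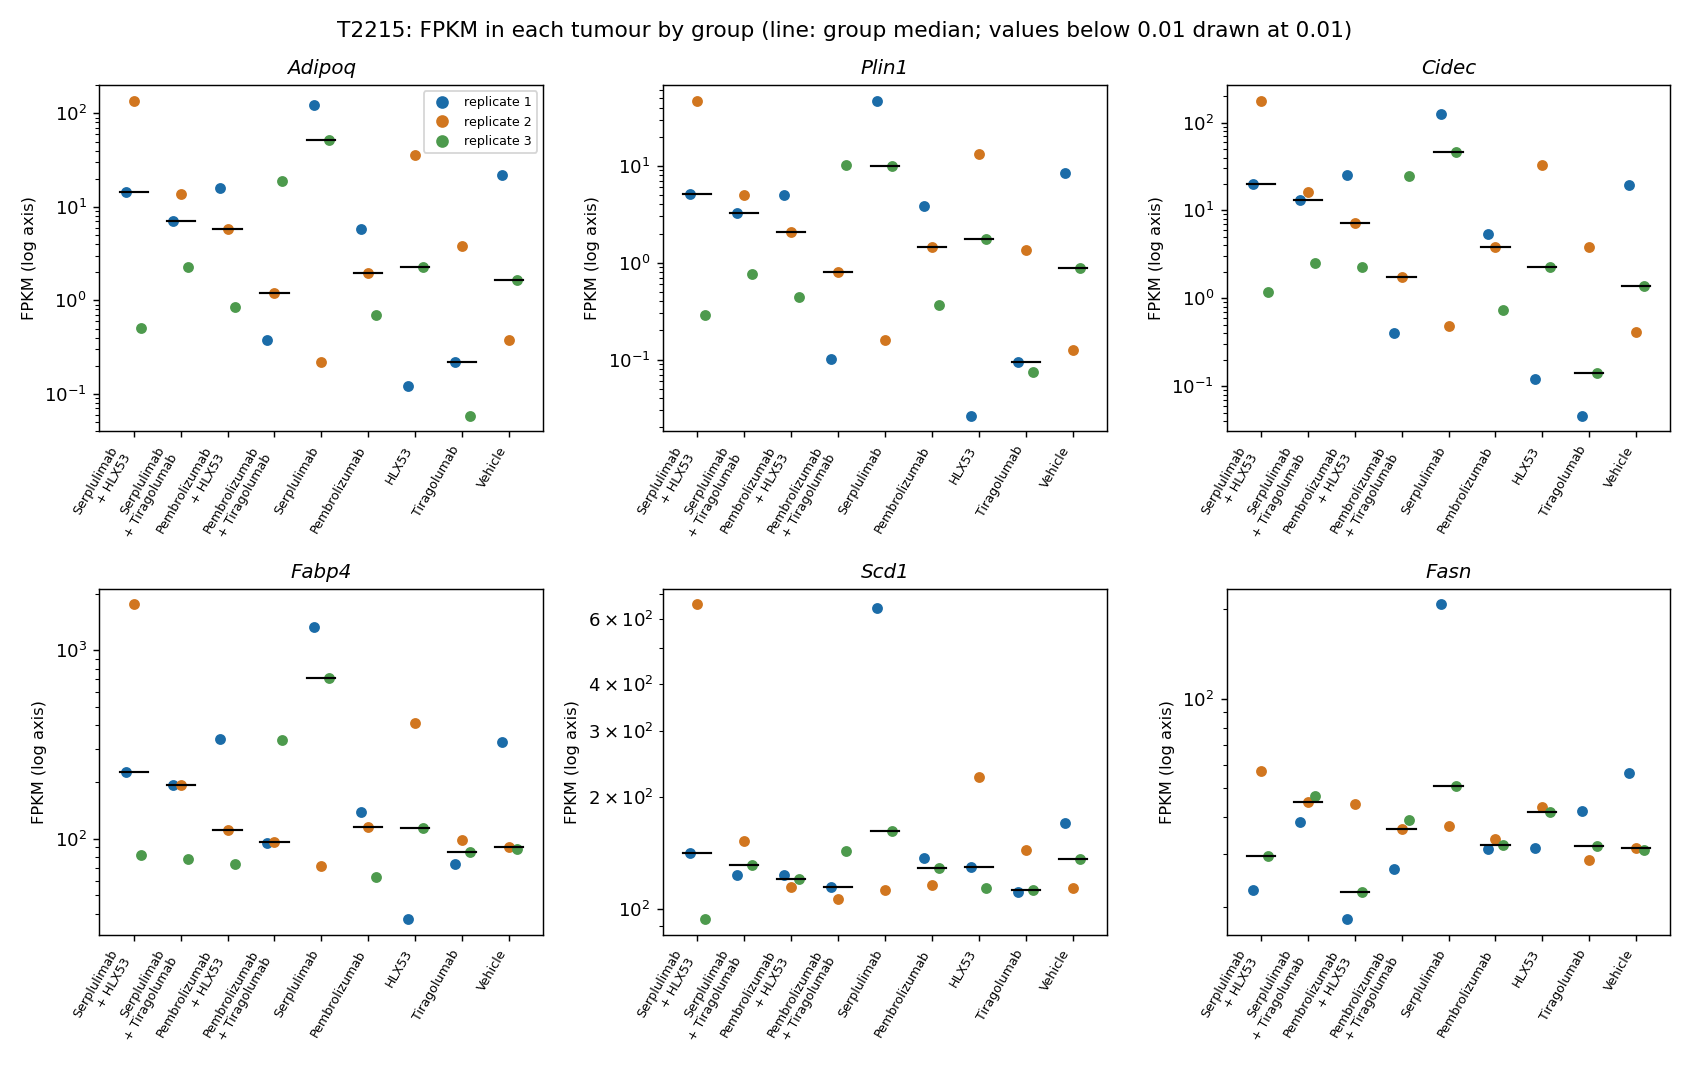
Levels of the same 6 genes in the 27 tumours of T2215 (y axis, FPKM on a log axis; x axis, treatment group, 1 point per tumour coloured by replicate number, line at the group median, lowest values drawn at the axis floor). Replicate 2 of serplulimab with HLX53 and replicate 1 of serplulimab stood highest in Adipoq, Plin1, Cidec, Fabp4 and Scd1.

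Of the 34 members, 33 had their highest T2215 value in 1 of 2 tumours: 19 in replicate 2 of serplulimab with HLX53 and 14 in replicate 1 of serplulimab. The first of these held 250 FPKM of Lpl, 1751 FPKM of Fabp4 and 101 FPKM of Pck1. Replicate 1 of serplulimab, the library with the muscle transcripts, held 32.8 FPKM of Slc2a4, 85.1 FPKM of Gpd1, 114 FPKM of Thrsp, 207 FPKM of Fasn, 7.11 FPKM of Mlxipl, 50.5 FPKM of Dgat2 and 29.5 FPKM of Acaca. Its Slc2a4 and Gpd1, genes that skeletal muscle also expresses, were above the 6.08 and 29.7 FPKM of the tumour with the most Adipoq. The part of muscle RNA in these values was not tested. Elovl6 was the exception, highest at 16.5 FPKM in replicate 1 of tiragolumab.

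In all 12 comparisons of T2215, 0 of the 31 members passed the threshold, and all genes passed at 0% to 0.0134%. For serplulimab with HLX53 against vehicle, the comparison that T2106 also held, the members' median difference was 1.17, beside -0.04 over all genes, and 3 members had an unadjusted p under 0.05, a smaller share than the 18.3% of all genes. These were Cd36 (2.16, adjusted p = 0.254), Cebpa (1.45, adjusted p = 0.258) and Elovl6 (-1.07, adjusted p = 0.258). Adipoq averaged 50.6 ± 74.9 FPKM with the pair and 8.02 ± 12.2 FPKM with vehicle (1.87 ± 1.93, 95% interval -2.15 to 5.90, adjusted p = 0.548). Lpl had 55.6, 250 and 17.6 FPKM with the pair, against 34.2, 4.04 and 2.49 FPKM with vehicle (3.02 ± 1.47, adjusted p = 0.276). Elovl6 had 4.63, 2.57 and 5.47 FPKM, against 11.9, 6.93 and 8.96 FPKM, and did not overlap. Whether the pair's effect differed between the experiments was not tested, since the tables were made separately.

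For serplulimab alone against vehicle the members' median was 1.52, beside -0.08 over all genes, with 2 at an unadjusted p under 0.05 (12.4% of all genes), Fasn (0.94, adjusted p = 0.403) and Thrsp (3.24, adjusted p = 0.389). Adipoq averaged 58.2 ± 61.5 FPKM with serplulimab and 8.02 ± 12.2 FPKM with vehicle (2.25 ± 1.93, 95% interval -1.77 to 6.28, adjusted p = 0.604). The count of members past the threshold was 2 without serplulimab replicate 2, with no share of all genes given for that refit. Pembrolizumab, HLX53, tiragolumab and the other 3 pairs each had 0 members at an unadjusted p under 0.05, beside 0.939% to 6.43% of all genes.

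The serplulimab arms and the pembrolizumab arms, each averaged over no TIGIT antibody, HLX53 and tiragolumab, differed by a median of 0.96 over the members, with 5 at an unadjusted p under 0.05 (9.51% of all genes). Adipoq averaged 38.8 ± 54 FPKM in the serplulimab arms and 5.75 ± 7.04 FPKM in the pembrolizumab arms (n = 9 each; 1.69 ± 1.12, 95% interval -0.64 to 4.01, limma adjusted p = 0.519). For the HLX53 arms against the tiragolumab arms the median was 0.70, with 4 members at an unadjusted p under 0.05, beside 26.6% of all genes. Lpl averaged 56.7 ± 77.4 FPKM in the HLX53 arms and 13.1 ± 17.3 FPKM in the tiragolumab arms (2.06 ± 0.85, limma adjusted p = 0.161) and Elovl6 5.96 ± 3.38 FPKM in the HLX53 arms and 9.76 ± 2.94 FPKM in the tiragolumab arms (-0.78 ± 0.28, limma adjusted p = 0.155). Adipoq averaged 22.3 ± 41 FPKM with any PD-1 antibody and 7.43 ± 12.9 FPKM with none (1.29 ± 0.97, 95% interval -0.72 to 3.30), and 14.5 ± 32 FPKM with any TIGIT antibody and 23 ± 41 FPKM with none (-0.31 ± 0.97, 95% interval -2.32 to 1.70), with 0 members at an unadjusted p under 0.05 in either comparison, beside 7.28% of all genes for PD-1 and 6.62% for TIGIT. Leaving out both tumours with the most Adipoq left 0 members past the threshold in each of the 12 comparisons.

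Among tumours of the same group, most members followed Adipoq. A slope of each gene on the tumour's Adipoq level, with the group as a factor, was above 0 and past the threshold for 25 of 30 members in T2106, beside 23.4% of all genes rising and 18.6% falling, and for 27 of 30 in T2215, beside 25.6% and 22.4%. In neither experiment did a member fall past the threshold. The 25 of T2106 include Lep, Aqp7 and Slc2a4, which each reached 0.5 FPKM in only 4 tumours of that experiment. They passed the minimum level only with the libraries of the pair, which were rich in Adipoq. Their T2106 slopes are therefore a description and not a test. The median slope over the members was 0.40 in T2106 and 0.42 in T2215, beside -0.0032 and -0.0044 over all genes. In T2215 25 members still rose without the 2 tumours richest in Adipoq. In T2106 the slopes leaned on replicate 2 of the 5 mg/kg group: 12 members rose without it, among them Retn, Cfd, Car3, Plin1, Cidec, Lipe, Fabp4 and Pck1, and 11 without all 3 libraries of that group. Lpl, Cebpa, Pnpla2, Scd1 and Thrsp were not among the 12. Shares of all genes are not given for these refits of the slopes.

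Slopes near 1 mean that a gene changed by the same factor as Adipoq from tumour to tumour. Cidec had 1.01 ± 0.03 (SE) in T2106 and 0.96 ± 0.03 in T2215, and Retn 0.92 ± 0.04 and 0.97 ± 0.03. Car3, at 1.16 ± 0.04 and 1.2 ± 0.03, and Cfd, at 1.21 ± 0.07 and 1.16 ± 0.04, were steeper. The pseudocount of 0.5 flattens the low end of each gene, so genes of low level can have smaller slopes on this scale. Plin1 followed at 0.72 ± 0.04 and 0.80 ± 0.03, Pck1 at 0.78 ± 0.04 and 0.82 ± 0.04, Gpd1 at 0.65 ± 0.05 and 0.68 ± 0.06, Lpl at 0.59 ± 0.12 and 0.70 ± 0.06 and Fabp4 at 0.62 ± 0.04 and 0.53 ± 0.04. The transcription factor genes Pparg (0.36 ± 0.04 and 0.35 ± 0.03) and Cebpa (0.41 ± 0.06 and 0.31 ± 0.03) were flatter, from a base that every tumour expressed. Pnpla2 (0.18 ± 0.03 and 0.21 ± 0.03) and Scd1 (0.17 ± 0.04 and 0.21 ± 0.04) were flatter still.

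**Figure D4:**
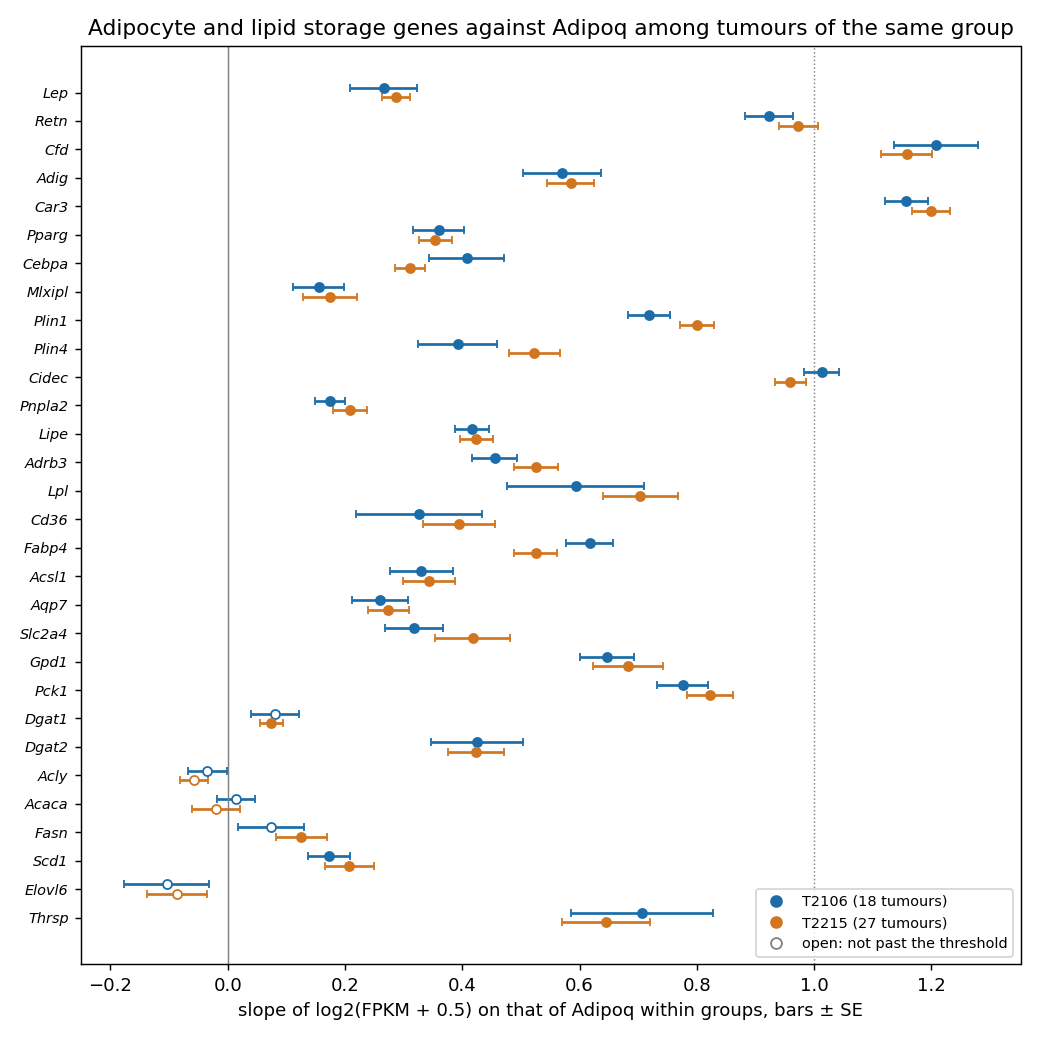
Slope of each tested gene on Adipoq within treatment groups (x axis, change in log2(FPKM + 0.5) per unit of that of Adipoq; bars, SE) in T2106 (18 tumours) and T2215 (27 tumours); open points did not pass the threshold, and the dotted line marks a slope of 1. Cidec, Retn, Car3 and Cfd lie near or beyond 1 in both experiments, and Acly, Acaca and Elovl6 lie near 0.

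Acly, Acaca and Elovl6, of fatty acid synthesis, had no rising slope in either experiment, and Fasn and Dgat1 had none in T2106. Elovl6 had -0.10 ± 0.07 in T2106 and -0.09 ± 0.05 in T2215 (limma adjusted p = 0.261 and 0.171), Acly -0.03 ± 0.03 and -0.06 ± 0.02 (0.42 and 0.0522) and Acaca 0.01 ± 0.03 and -0.02 ± 0.04 (0.739 and 0.707). Fasn had 0.07 ± 0.06 in T2106 (adjusted p = 0.296) and 0.13 ± 0.04 in T2215 (0.023). Dgat1 had 0.08 ± 0.04 (0.119) and 0.07 ± 0.02 (0.00446). Without the 2 tumours richest in Adipoq, neither Fasn nor Dgat1 passed in T2215. Of those 2 tumours, replicate 1 of serplulimab held 207 FPKM of Fasn, against 57.1 FPKM in the next highest tumour. Acly, Acaca, Fasn, Elovl6 and Dgat1 were at 0.5 FPKM or more in every tumour of both experiments. The HLX53 tumours of T2106, with little Adipoq, had 87.9, 60.8 and 74.3 FPKM of Acly, beside a median of 73.3 FPKM over the experiment. They had 23.1, 32.7 and 23.9 FPKM of Fasn, beside a median of 30.2 and a lowest value of 21.5 FPKM, so 2 of the 3 lay near the low end. Of the fatty acid synthesis genes, Thrsp had the steepest slopes, at 0.71 ± 0.12 and 0.65 ± 0.08, and Scd1 also rose in both experiments, less steeply. Neither slope passed in T2106 without replicate 2 of the 5 mg/kg group.

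**Figure D5:**
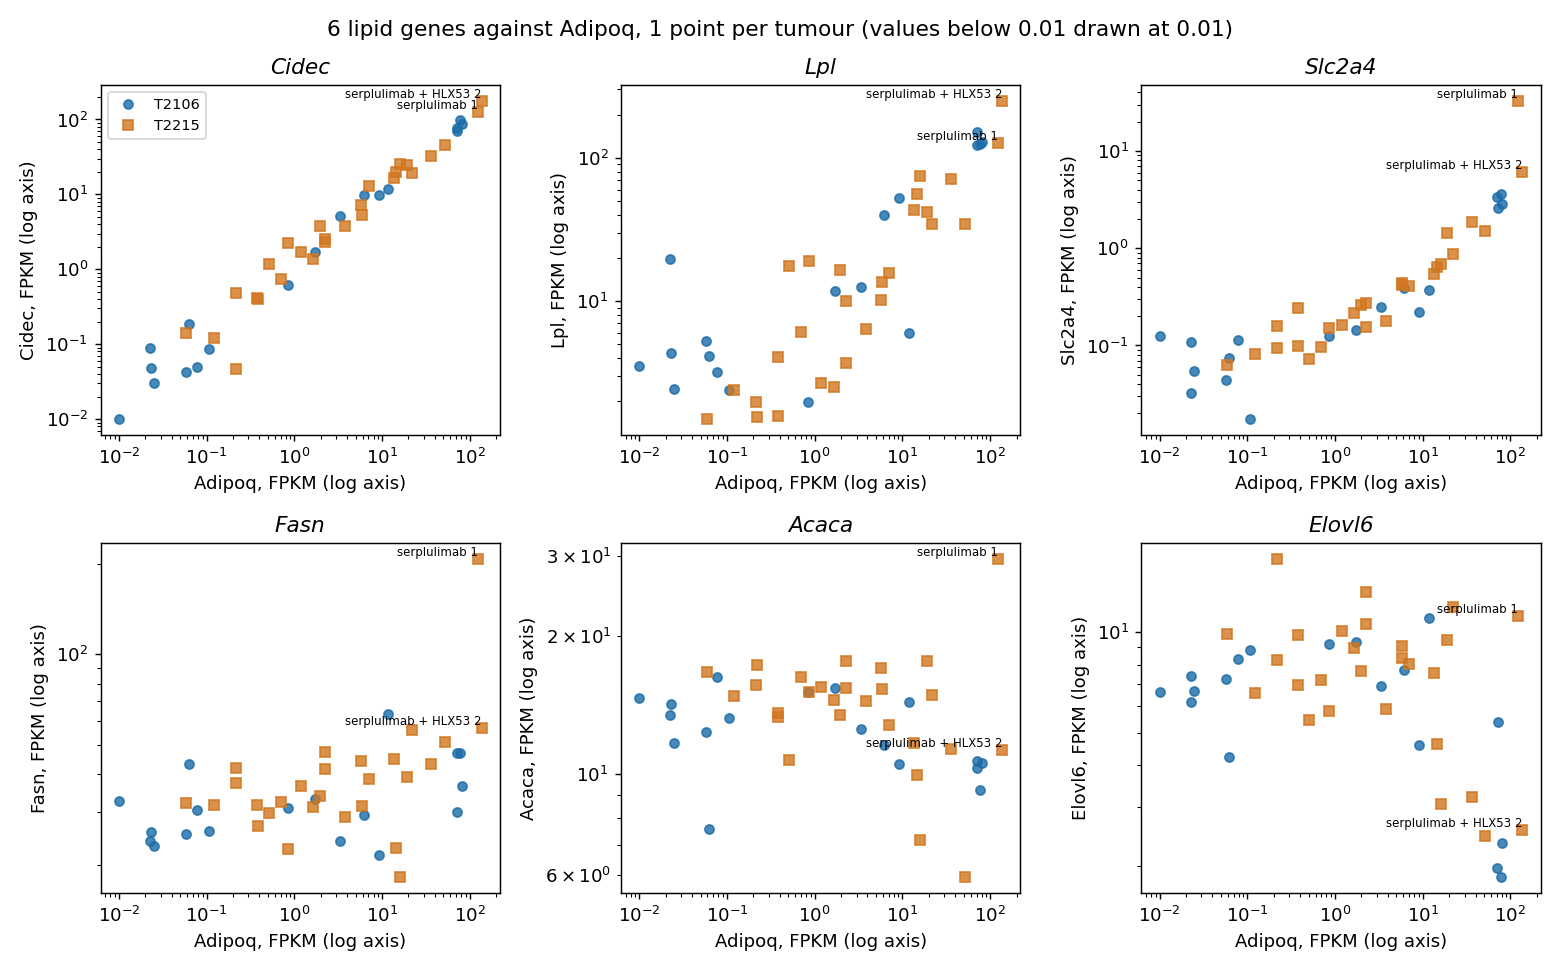
Levels of 6 lipid genes against Adipoq (both in FPKM on log axes), 1 point per tumour, circles T2106 and squares T2215; 2 tumours of T2215 are named and the lowest values are drawn at the axis floor. Cidec runs along Adipoq over the whole range, Lpl and Slc2a4 do so at the upper end, and Fasn, Acaca and Elovl6 show no such run, with Fasn and Acaca highest in replicate 1 of serplulimab.

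Within groups other cell types' markers also followed Adipoq. In each experiment 8 of 8 endothelial, 7 of 8 macrophage and 6 of 6 T cell markers rose, and 7 of 10 and 9 of 11 fibroblast markers did. Past the threshold, 1 macrophage marker fell in T2106 and 1 fibroblast marker fell in each experiment. Of the dividing cell markers 4 of 6 fell in each. Over all genes 23.4% rose and 18.6% fell in T2106, and 25.6% and 22.4% in T2215. Of the related pathways, 15 of 17 other adipocyte-enriched genes rose and 1 fell in each experiment, and 9 of 12 sterol synthesis genes fell in each. Their part in the members' slopes was not tested. With the tumour's Adipoq level as a covariate in the group comparison, 0 members passed in any comparison of either experiment, and Cfd and Car3 changed sign in the pair against vehicle in T2106. The 3 tumours with the pair held 3 of the 4 highest Adipoq levels of that experiment, so the treatment and the Adipoq level cannot be told apart there. The covariate takes out what the members share with Adipoq, so the 0 is no test of the members. The share of all genes under the covariate is not given here.

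The 3 untested members were low throughout. Cidea, a droplet gene of brown and beige fat, had 0.43, 0.347 and 0.296 FPKM in the 3 tumours with the pair in T2106, 0.309 FPKM in replicate 2 of the 5 mg/kg group and 0.254 FPKM in replicate 2 of vehicle, and at most 0.0576 FPKM elsewhere. Its T2215 maximum was 1.02 FPKM, in replicate 1 of serplulimab. Acvr1c, encoding the receptor ALK7, which restrains lipolysis in adipocytes, peaked at 0.519 FPKM in T2106 and at 0.698 FPKM in T2215, both in tumours given serplulimab with HLX53. Ucp1 peaked at 0.48 FPKM in T2215, in the tumour with the most Adipoq.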

How the data were processed

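RNA-seq of 45 tumours from 2 experiments was deposited as 1 table of log2 FPKM per experiment, which the authors computed. FPKM are fragment numbers scaled by gene length and library total. The builds mm10, hg19 and GRCh37 and the tools Trimmomatic, FastQC, Bowtie and STAR are named, without roles, per the submitters' processing notes. The program that computed FPKM, its annotation and its strand setting are not given in the sources used here. Both tables hold no counts, so depth and counting error are unknown. Each column was matched to its tumour by the animal number in its name.

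The log2 values were turned back to FPKM. log2(FPKM + 0.5) was fitted with limma 3.58.1 in R 4.3.3, with all groups of an experiment in 1 fit, a trended prior, no covariate, and genes at 0.5 FPKM or more in at least 3 libraries. Comparisons numbered 8 (T2106) and 12 (T2215), with p-values adjusted by the Benjamini-Hochberg method within each over all tested genes and a threshold of 0.05. Slopes came from the same model with the Adipoq level as a covariate. On simulated data with 200 genes shifted by 3 log2 units in serplulimab against vehicle, or given a slope of 2, the fits recovered 200. They made 12 or 13 other calls, and smaller shifts were not simulated. Every simulated gene varied independently with the median spread over all genes. The recovery therefore says nothing of genes with a wider spread: the dose difference in Adipoq, above 3 log2 units, did not pass the threshold. Members and lists were chosen with earlier results of these data known. Per-tumour values were given for Adipoq, Plin1, Fabp4, Lep, Cidec, Fasn, Lpl, Cd36, Pparg, Plin4, Acsl1 and Aqp7, and for other members where a result turned on them, chosen after their values were seen. Other pathway genes named are those with the smallest p of each list. Alternatives were other pseudocounts, no filter, median-centred libraries, only the libraries compared, a replicate block, the Adipoq covariate and leaving out each tumour.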

Additional observations from a re-analysis of the deposited data

Results flagged for a closer look

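For Elovl6, the elongase of palmitate, pembrolizumab with tiragolumab minus vehicle was -0.32 on the log2(FPKM + 0.5) scale in T2106 and 0.11 in T2215, a difference between the experiments of -0.42 (-0.425). In T2106 each of the 3 tumours with the pair lay below the vehicle mean, and in T2215 each of the 3 lay above it. The difference itself was not tested, and neither comparison had an adjusted p past the threshold in limma.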

How the results depend on the processing

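For serplulimab with HLX53 against vehicle in T2106, 27 members passed the threshold in either direction; 24 did with no filter, 26 with the replicate block, 29 without the libraries given HLX53 at 5 mg/kg (an alternative chosen after seeing the data), and 0 with the Adipoq level as a covariate, under which Cfd (-0.35) and Car3 (-0.0485) changed sign. Leaving out 1 tumour gave 8 to 26. Against HLX53, 25 passed, 0 with the covariate and 11 to 26 when 1 tumour was left out; with the covariate Retn (-0.0089), Pparg (-0.11), Cebpa (-0.32), Cidec (-0.0875), Pnpla2 (-0.26), Lipe (-0.21), Fabp4 (-0.69), Acsl1 (-0.16), Dgat2 (-0.0656) and Thrsp (-1.02) changed sign. Against serplulimab the count of 5 was the least steady: it was 0 with a pseudocount of 0.1, 1 with no filter, 0 with the covariate, 19 with only the libraries compared, 29 without the 5 mg/kg libraries, 4 with the block and 0 to 24 when 1 tumour was left out. Apart from the covariate, which takes out what the members share with Adipoq, the cause of these changes was not tested. Shares of all genes under these alternatives are not given here, so the counts do not show whether the members stood apart. Leaving out 1 tumour gave 0 to 27 for 10 against 5 mg/kg, 0 to 24 for 5 mg/kg against vehicle and 0 to 2 for serplulimab against vehicle in T2215. The slopes rising with Adipoq numbered 12 to 26 in T2106 and 26 to 27 in T2215, 11 in T2106 without the 5 mg/kg libraries, and 24 and 27 with the block. Every other comparison kept 0 members under each alternative run. Tumours sharing a replicate number did not deviate together more than others. Their r ran from -0.683 to 0.624 over 45 pairs in T2106 (median -0.0259), 11 of them over 0.1. In T2215 it ran from -0.739 to 0.723 over 108 pairs (median -0.0385), 42 of them over 0.1. Of pairs with different numbers, 31 of 90 in T2106 and 87 of 216 in T2215 were over 0.1 (medians -0.0087 and 0.0120). With 3 tumours a group, and a depth that FPKM do not give, differences smaller than the intervals printed were not detectable.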
